A study of Mus musculus with 39 samples.

Results

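Endothelial cells of the brain are joined by tight and adherens junctions, and 9 genes of these junctions were followed across 3 mouse models of lost BMP signalling and an antibody experiment. The genes were taken by symbol from the gene tables, 9 of the 24946 genes present in every table: the tight junction strand proteins Cldn5, Ocln and Marveld2, the tricellular junction protein Lsr, the immunoglobulin-type adhesion proteins Jam2 and Esam, the cytoplasmic scaffolds Tjp1 and Cgn, and the adherens junction cadherin Cdh5. Each mutant was studied in its own cohort of C57BL/6 pups with a wild type group beside it. Mutants were Smad4f/f, Alk1f/f or Engf/f with Cdh5-CreERT2, a tamoxifen-activated Cre recombinase under the promoter of the endothelial gene Cdh5, and wild types carried the floxed allele without Cre. The labels state tamoxifen for the pups of each model without setting genotypes apart, at 300 µg a day on postnatal days 1 to 3 in the Smad4 and Eng cohorts and at 100 µg on postnatal day 4 in the Alk1 cohort. Brains were taken on postnatal day 7, or day 6 in the Alk1 cohort. There were 5 mutant and 5 wild type libraries in each of the Smad4, Alk1 and Eng cohorts. In a further Smad4 experiment pups also received 30 µg of antibody on postnatal days 2 and 4: LC10, an inhibitor of angiopoietin-2, in 3 mutants, or control IgG in 3 mutants and 3 wild types. Cells were released from whole brain by enzyme, captured on beads carrying an antibody against PECAM, and sequenced as RNA.

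Tight junctions close the cleft between neighbouring endothelial cells, and in the brain they form the seal of the blood-brain barrier. Claudins and occludin span the membrane as strands, angulins such as Lsr recruit tricellulin (Marveld2) to the corners where 3 cells meet, and ZO-1 (Tjp1) ties the strands to actin. VE-cadherin (Cdh5) holds the adherens junctions together. Alk1 is the endothelial receptor for BMP9 and BMP10, endoglin (Eng) is its co-receptor and Smad4 passes the signal to the nucleus. In people, mutations in these 3 genes cause hereditary haemorrhagic telangiectasia, a disease of malformed vessels.

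The 39 libraries had 16125 to 17708 genes above 0. Values are the authors' deposited signal, in arbitrary units and taken to be normalized in each table apart, so levels are compared only within a table. Smad4 itself was at 1676 to 1916 in Smad4 mutants and 5258 to 5903 in their wild types, and Eng at 8613 to 11508 in Eng mutants and 60151 to 70402 in theirs. Acvrl1, the gene of Alk1, was at 12441 to 15809 in Alk1 mutants and 14197 to 16756 in wild types, a log2 fold change of -0.12 ± 0.08 (SE, adjusted p = 0.279, limma). The labels do not say which exons were floxed, and the signal over the whole gene does not check the Alk1 genotype. None of the 12 endothelial markers was listed at 0 in any group, and their sum was 12655 to 14586 ppm of a library's summed values in Smad4 mutants and 12262 to 13950 ppm in wild types, 11900 to 14179 ppm in Alk1 mutants and 12340 to 13139 ppm in wild types, 12118 to 12569 ppm in Eng mutants and 12386 to 13529 ppm in wild types, and 13036 to 13269 ppm in IgG mutants and 13338 to 13662 ppm in wild types. Single endothelial markers moved all the same. Of the 12 tested 3 rose and 2 fell in Smad4 mutants, 4 and 2 in Alk1, 1 and 4 in Eng and 2 and 3 in IgG mutants. Markers of several other cell types were lower in Smad4 mutants. The 12 pericyte and smooth muscle markers summed to 460 to 1509 ppm in Smad4 mutants and 1779 to 2496 ppm in wild types, with 7 of 11 tested falling. The 12 epithelial and choroid plexus markers summed to 109 to 823 ppm in Smad4 mutants and 926 to 4703 ppm in wild types, with 7 of 9 tested falling. In the same mutants 8 of 11 neuron, 3 of 9 astrocyte, 4 of 8 oligodendrocyte and 4 of 5 erythroid markers tested fell. Of 9 fibroblast and meningeal markers 4 fell and 1 rose there, and the microglia markers overlapped, at 167 to 695 ppm in Smad4 mutants and 299 to 787 ppm in wild types. Pericyte and smooth muscle markers summed to 1730 to 3384 ppm in Alk1 mutants and 2731 to 3400 ppm in wild types, with 4 of 11 falling, and to 1773 to 3084 ppm in Eng mutants and 1839 to 3097 ppm in wild types. Erythroid markers summed to 457 to 698 ppm in Alk1 mutants and 1246 to 2028 ppm in wild types, with 4 of 5 falling, and to 451 to 765 ppm in Eng mutants and 670 to 1151 ppm in wild types, with 3 of 6 falling. Also in Alk1 mutants 3 of 9 fibroblast, 2 of 9 neuron and 1 of 9 astrocyte markers fell and 1 of 9 microglia markers rose. In IgG mutants the pericyte and smooth muscle markers summed to 1146 to 2208 ppm against 2354 to 3183 ppm in IgG wild types. Of these 4 of 11 fell. In the same mutants 4 of 9 fibroblast, 4 of 9 microglia, 3 of 8 oligodendrocyte, 2 of 9 astrocyte and 2 of 10 neuron markers fell too. A level of markers of neurons and glia was put into the fit as a term, and the results that it changed are given with the gene; otherwise the part of these cells was not tested.

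In wild type cells the 9 genes spanned about 4 orders of magnitude per kilobase of exon, and their order was the same in all 4 wild type groups. Cldn5 led with 71467 ± 9300 per kilobase in the Smad4 cohort (SD, n = 5), 5.71 times the 12518 of Cdh5. Esam followed with 9381, Lsr with 5647 and Tjp1 with 5032 per kilobase. Ocln was at 1906, Jam2 at 1571, Marveld2 at 273 and Cgn, a scaffold best known from epithelia, at 5.78 per kilobase. The order of the means was Cldn5, Cdh5, Esam, Lsr, Tjp1, Ocln, Jam2, Marveld2 and Cgn in the Alk1, Eng and IgG wild types too. The ranges of Lsr and Tjp1 overlapped in the Smad4, Alk1 and Eng wild types, and those of Ocln and Jam2 overlapped in the Eng wild types, and the ranges of all other neighbours were apart. Within single libraries Lsr was above Tjp1 in 5 of 5 Smad4, 3 of 5 Alk1 and 4 of 5 Eng wild types, and Ocln was above Jam2 in 5 of 5 Eng wild types. The order rests on the division by exon length, and whether the deposited values already account for length is not given. Undivided, the Smad4 wild type mean of Tjp1, 39308, was above that of Esam, 26896. Likewise Jam2, at 9496, was above Ocln, at 8048.

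**Figure D1:**
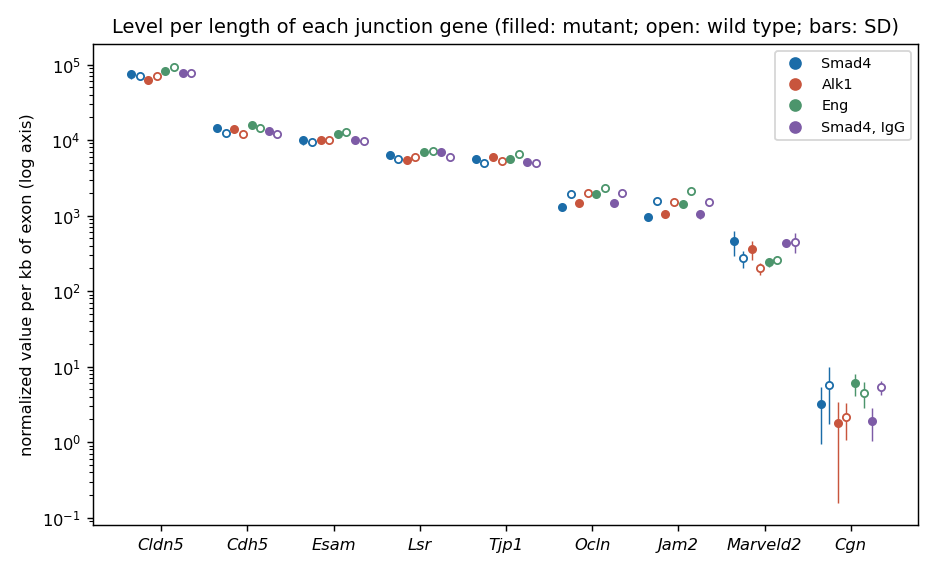
Mean level of each junction gene per kilobase of exon on a log axis, with bars for the SD and with mutants (filled) left of wild types (open) in each cohort. Cldn5 lies at the top and Cgn at the bottom in every group, with Marveld2 next above Cgn.

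Mutant and wild type values were compared within each table with limma on log2(value + 2), and a gene was called at a Benjamini-Hochberg adjusted p under 0.05 over all genes tested. Jam2 and Ocln fell in all 4 comparisons, Cdh5 rose in the Smad4 and Alk1 mutants, and the remaining calls were each made in a single comparison. In Smad4 mutants 3 of 9 members tested passed, Cdh5 higher and Jam2 and Ocln lower, where 33.0% of all genes tested were called. Alk1 mutants had 4 of 8 called, Cdh5 and Marveld2 higher and Jam2 and Ocln lower, against 33.2% of all genes. Eng mutants had 4 of 9 called, Jam2, Ocln, Tjp1 and Cldn5, all lower, against 21.5% called in either direction and 9.08% called lower. IgG-treated Smad4 mutants had 3 of 9 called, Lsr higher and Jam2 and Ocln lower, against 17.8% of all genes. In Smad4 mutants the members' share was thus that of all genes. The median log2 fold change over the members tested was 0.072 in Smad4, -0.052 in Alk1, -0.125 in Eng and 0.028 in IgG mutants, beside -0.006, -0.010, -0.013 and 0.003 over all genes tested. With values divided by library totals, 37.2% of the Smad4 calls and 41.1% of the Alk1 calls over all genes were higher, against 52.1% and 52.7% with values as deposited. In bulk RNA, fewer cells of a type and less RNA per cell cannot be told apart. Nothing in the labels says that libraries of a group came from separate animals, and p-values then measure only the spread between these libraries.

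**Figure D2:**
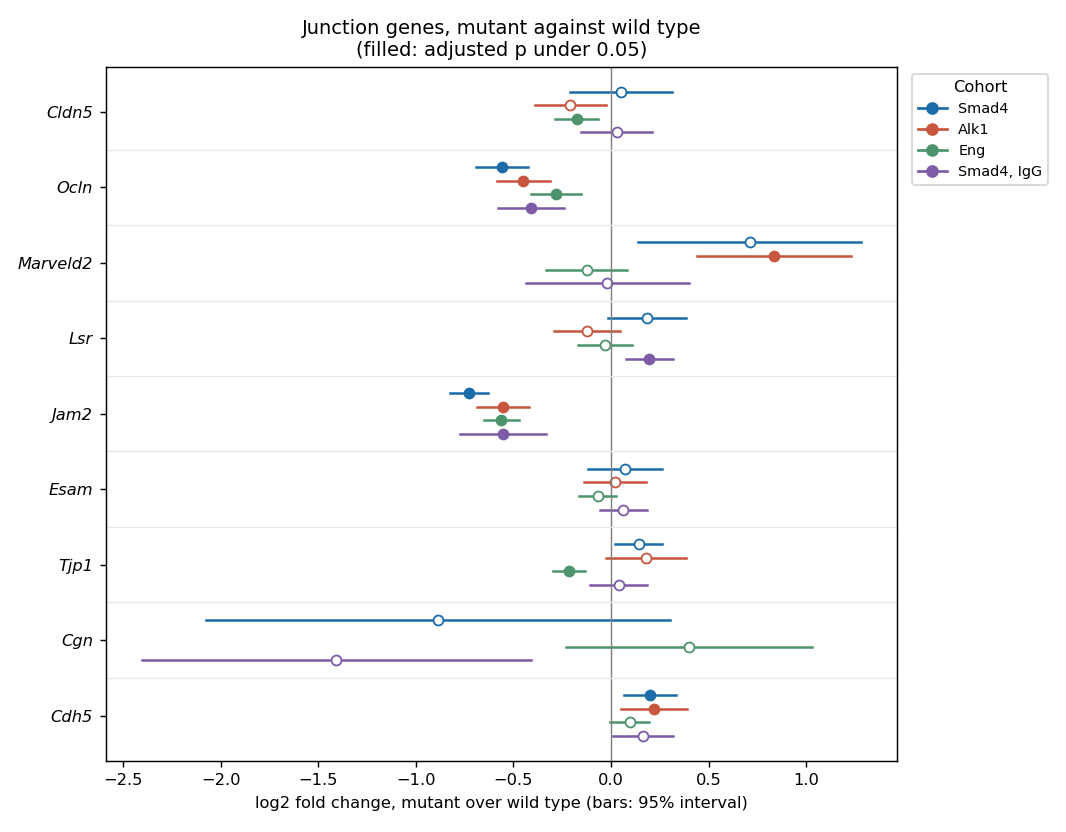
Log2 fold change of each junction gene, mutant over wild type, in the Smad4, Alk1, Eng and IgG-treated Smad4 cohorts, with bars for the 95% interval and filled points for an adjusted p under 0.05. Jam2 and Ocln lie left of 0 in all 4 comparisons, and Marveld2 lies near 0.71 and 0.83 in the Smad4 and Alk1 cohorts and near -0.13 and -0.02 in the Eng and IgG cohorts.

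Claudin-5, the main claudin of brain endothelium, is encoded by Cldn5 (ENSMUSG00000041378, chr16:18776847-18778262, plus strand, mm10), and it was called in Eng mutants alone of the 4 comparisons, lower by a small amount. Its promoter window is shown because Cldn5 had the highest level of the 9 genes. It runs from 250 bases before to 50 bases after the start (RefSeq, GRCm38.p6, chr16:18776597-18776896, plus strand) and holds none of the 5 short motifs that were searched.
Cldn5: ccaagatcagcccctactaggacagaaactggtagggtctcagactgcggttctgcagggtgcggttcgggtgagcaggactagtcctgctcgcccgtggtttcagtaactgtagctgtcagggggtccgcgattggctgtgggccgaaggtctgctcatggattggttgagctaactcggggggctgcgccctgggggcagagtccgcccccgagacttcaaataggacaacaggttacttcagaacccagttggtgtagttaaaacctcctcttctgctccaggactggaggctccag
The motifs, searched on both strands with overlaps allowed, were the SMAD-type sequences GGCGCC and CAGACA, the ETS core CCGGAA, the forkhead core TAAACA and the TCF core CTTTGA, present in 11.9%, 21.0%, 14.9%, 13.4% and 16.0% of 32851 RefSeq promoter windows of the same length. A match is a description of letters and shows no binding. Windows were on hand for 6 of the 9 members, Cldn5, Ocln, Tjp1, Lsr, Marveld2 and Cgn.

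Cldn5 was at 95450, 104957, 85804, 116203 and 121844 in Smad4 mutants and 88142, 94442, 92879, 112729 and 117794 in their wild types, and the groups overlapped. The difference was 0.05 ± 0.12 (log2, SE, adjusted p = 0.779), with a 95% interval of -0.213 to 0.311. In both groups libraries 4 and 5, whose column names carry the code L146, were the highest, by 24.8% over the other mutants and 25.5% over the other wild types. The labels do not say what such a code stands for, and library code here means only that string in the column name. In Alk1 mutants Cldn5 was at 80839, 82944, 85785, 95048 and 90357, against 94278, 94110, 96050, 115338 and 103403 in wild types. Only mutant library 4, coded L219, reached into the wild type range, and the fold change of -0.21 ± 0.08 missed the threshold (adjusted p = 0.0755). With the library code as a term the same difference had an adjusted p of 0.024, with the number in the column name as a replicate block 0.0155, and with each library divided by its total it was -0.28 with an adjusted p of 0.0225. Eng mutants had 113393, 114911, 111903, 123592 and 114077, against 133109, 130937, 136097, 121575 and 130899 in wild types. The mutants were lower except library 4, which lay above wild type library 4, and the fold change was -0.18 ± 0.05 (adjusted p = 0.0278). The call was lost without any of mutant libraries 1, 2 and 3 or wild type libraries 1, 2 and 3, with adjusted p-values of 0.0527 to 0.0754, and under quantile normalization the difference was 0.001 (adjusted p = 0.989). In IgG-treated Smad4 mutants Cldn5 was at 112095, 108944 and 108486, against 112895, 102930 and 107569 in IgG wild types, a difference of 0.03 ± 0.08 (adjusted p = 0.824, interval -0.153 to 0.209).

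Occludin (Ocln, ENSMUSG00000021638, chr13:100496507-100552718, minus strand) is a tight junction strand protein, and its RNA was lower in the mutants of all 4 comparisons. Tricellulin is its relative in the MARVEL family, which sits at tricellular corners, and its gene Marveld2 (ENSMUSG00000021636, chr13:100595957-100616971, minus strand) is the neighbour of Ocln, 43238 bases away on the same strand. The promoter windows of the pair are shown because the neighbours moved in opposite directions in the Alk1 mutants. Each runs 5′ to 3′ on the minus strand, for the first of 2 starts listed for the gene, at chr13:100552669-100552968 for Ocln and chr13:100616922-100617221 for Marveld2 (RefSeq, GRCm38.p6), with motif matches in capitals.
Ocln: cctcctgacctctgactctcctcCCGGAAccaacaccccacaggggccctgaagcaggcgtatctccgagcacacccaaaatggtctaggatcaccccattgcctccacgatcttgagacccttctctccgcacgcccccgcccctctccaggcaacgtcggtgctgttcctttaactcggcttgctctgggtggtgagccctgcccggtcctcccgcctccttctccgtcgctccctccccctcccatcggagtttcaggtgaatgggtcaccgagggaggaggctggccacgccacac
Marveld2: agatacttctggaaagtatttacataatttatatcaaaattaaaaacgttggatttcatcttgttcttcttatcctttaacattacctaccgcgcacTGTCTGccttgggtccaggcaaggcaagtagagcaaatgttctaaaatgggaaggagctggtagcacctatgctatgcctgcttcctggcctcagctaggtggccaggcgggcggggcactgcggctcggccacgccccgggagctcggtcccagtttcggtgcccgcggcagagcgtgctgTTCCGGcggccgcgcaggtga
The Ocln window has CCGGAA at position -227 from the start site. In the Marveld2 window CAGACA is found at position -153 and CCGGAA at position 30, both on the other strand and so printed as TGTCTG and TTCCGG. Of the other members with a window, Lsr has CCGGAA at position -52 and CTTTGA at position -166, Cgn has CAGACA at position -123, and Tjp1 has none of the 5.

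Ocln was at 5783, 6003, 4824, 5314 and 5432 in Smad4 mutants, against 8024, 8073, 8503, 8000 and 7642 in wild types. Every mutant was below every wild type, with a log2 fold change of -0.56 ± 0.06 (SE, adjusted p = 6.6e-05). In Alk1 mutants it was at 5653, 6626, 5863, 6667 and 6205, against 7989 to 8788 in wild types, again with no overlap and a fold change of -0.45 ± 0.06 (adjusted p = 0.000211). Eng mutants had 8712, 7826, 7709, 8112 and 7832, against 8670, 10405, 10517, 9079 and 10317 in wild types. There mutant library 1 was above wild type library 1 and the other mutants were below all wild types, and the change was smaller, -0.28 ± 0.06 (adjusted p = 0.00494). IgG-treated Smad4 mutants had 6914, 6260 and 5678, against 8483, 8156 and 8330 in IgG wild types, without overlap and with a change of -0.41 ± 0.07 (adjusted p = 0.0132). That call was lost without mutant library 2 (adjusted p = 0.0622) and with markers of neurons and glia as a term (-0.43, adjusted p = 0.0795). With the same term in the Smad4 cohort the change was -0.60 ± 0.08 (adjusted p = 0.000559). Libraries with the code L146 alone gave -0.54, and those without a code -0.57.

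Marveld2 was at 1408, 2335, 805, 1879 and 1404 in Smad4 mutants, against 1119, 713, 1241, 765 and 784 in wild types. All but mutant library 3 were above every wild type, and the change of 0.71 ± 0.26 (SE) missed the threshold with an adjusted p of 0.0558. Without mutant library 3 it was 0.93 (adjusted p = 0.00633) and without wild type library 3 the adjusted p was 0.0461, and with the library code as a term it was 0.0465. In Alk1 mutants Marveld2 was at 830, 1454, 1694, 1136 and 1024, against 610, 620, 649, 900 and 598 in wild types. The mutants were higher except library 1, which lay below wild type library 4, and the fold change was 0.83 ± 0.18 (adjusted p = 0.00416). Within the libraries coded L219 it was 0.56 (adjusted p = 0.0559), and within those without a code 1.02 (adjusted p = 0.0249). Eng mutants had 707 to 931 and wild types 778 to 962, a difference of -0.13 ± 0.10 (adjusted p = 0.413, interval -0.334 to 0.084). With IgG the Smad4 mutants were at 1362, 1444 and 1622, against 1281, 2046 and 1266 in IgG wild types, with a difference of -0.02 ± 0.18 (adjusted p = 0.951) and an interval of -0.436 to 0.398. Whether this differed from the untreated Smad4 cohort was not tested.

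Lsr (angulin-1, ENSMUSG00000001247, chr7:30957770-30973464, minus strand) marks tricellular corners and recruits tricellulin. The gene shares 946 exon bases with the opposite-strand gene Gm4673, and reads from both strands cannot be told apart because the library kit does not mark strand. Lsr was at 11876 to 16126 in Smad4 mutants and 11004 to 13805 in wild types, with overlap and a difference of 0.18 ± 0.09 (log2, SE, adjusted p = 0.134). The coded libraries were higher than the others by 19.6% among mutants and 19.4% among wild types, and with the code as a term the difference had an adjusted p of 0.00957. In Alk1 mutants Lsr was at 9919 to 12573, against 11539 to 13745 in wild types (-0.12 ± 0.08, adjusted p = 0.25), and in Eng mutants at 13619 to 15955, against 13945 to 17308 in wild types (-0.03 ± 0.06, adjusted p = 0.796). With each library divided by its total the Alk1 difference was -0.20 and passed the threshold (adjusted p = 0.0436). IgG-treated Smad4 mutants had 14960, 14677 and 14998, against 13709, 12631 and 12659 in IgG wild types. All 3 mutants were higher, by 0.20 ± 0.05 (adjusted p = 0.0396). That call was lost without any of the 3 mutant libraries or without wild type library 2 or 3, with adjusted p-values of 0.054 to 0.13, and with markers of neurons and glia as a term (0.11, adjusted p = 0.381).

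**Figure D3:**
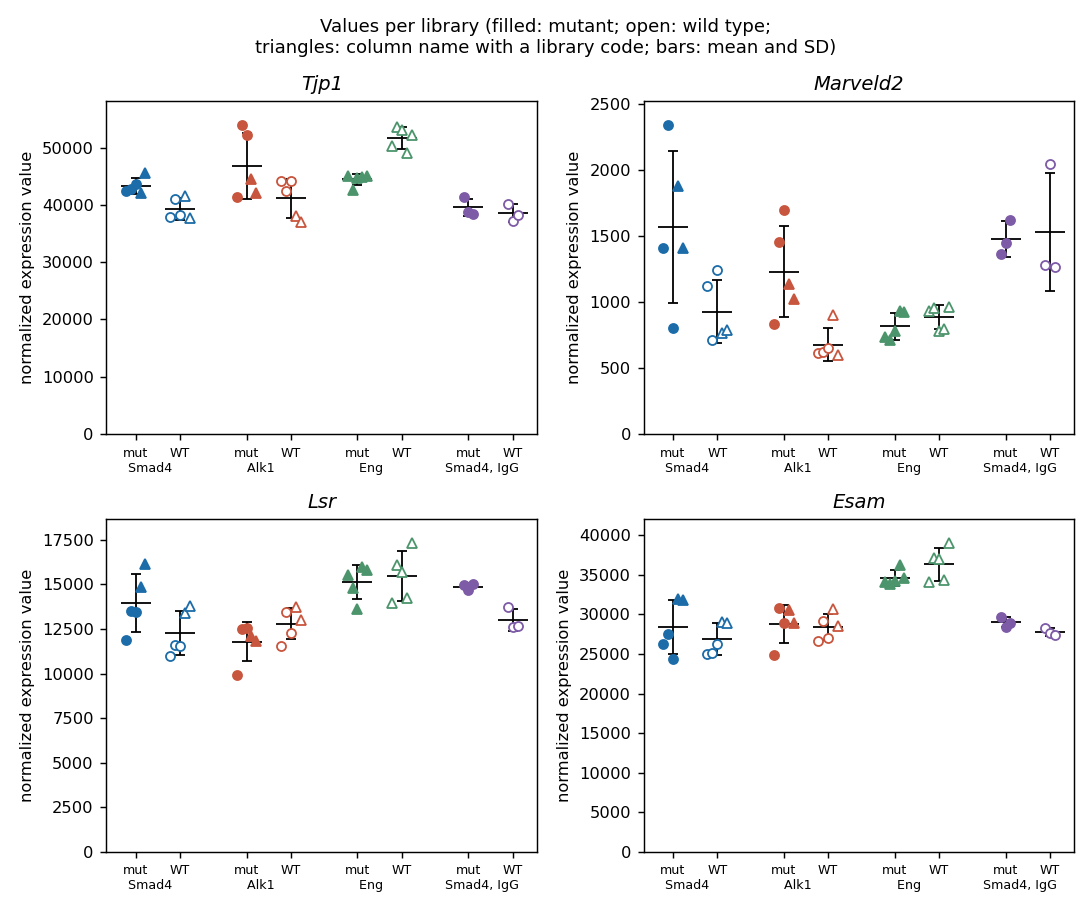
Values of Tjp1, Marveld2, Lsr and Esam in every library, mutants left of wild types in each cohort, with mean and SD and with triangles for libraries whose column name carries a code. Eng mutants lie below all Eng wild types for Tjp1, and 4 of 5 Smad4 mutants and 4 of 5 Alk1 mutants lie above all their wild types for Marveld2.

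Junctional adhesion molecule B is the product of Jam2 (ENSMUSG00000053062, chr16:84774123-84825928, plus strand), an immunoglobulin-type protein of endothelial contacts that binds leukocytes and other JAM proteins. Its RNA fell in every comparison and had the smallest p-value of the 9 genes in each of the 4. Jam2 was at 5914, 5658, 5611, 5583 and 5852 in Smad4 mutants, against 9064, 9498, 9138, 10110 and 9671 in wild types. The groups were far apart, with a log2 fold change of -0.73 ± 0.04 (SE, adjusted p = 1.06e-06). Alk1 mutants had 5802, 6263, 6463, 6967 and 5931, against 9040, 8876, 9317, 9737 and 9150 in wild types (-0.56 ± 0.06, adjusted p = 3.48e-05). Eng mutants had 8868, 8471, 8396, 8850 and 8717, against 12119, 13589, 13046, 11902 and 13336 in wild types (-0.56 ± 0.04, adjusted p = 3.6e-06). In neither cohort did a mutant reach the wild type range. IgG-treated Smad4 mutants had 7315, 6210 and 5543, against 9466, 8941 and 9396 in IgG wild types, again apart, with a change of -0.55 ± 0.09 (adjusted p = 0.0122). Without mutant library 2 the adjusted p of that change was 0.06, and with markers of neurons and glia as a term it was 0.076. In the Smad4, Alk1 and Eng cohorts the call held without any single library, in the range -0.75 to -0.71, -0.59 to -0.53 and -0.59 to -0.54, and in the Smad4 and Alk1 cohorts within coded and uncoded libraries alike. With the marker level as a term the Smad4 value was -0.76 ± 0.06 (adjusted p = 1.21e-05).

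The IgG-treated mutants also differed among themselves in Smad4, which was at 3030, 2099 and 1817 in mutant libraries 1, 2 and 3, against 5625 to 5976 in IgG wild types. Jam2 and Ocln took the same order over these 3 libraries, with library 1 nearest to wild type. With 3 libraries this is a description and carries no test.

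Esam (ENSMUSG00000001946, chr9:37528078-37538319, plus strand), an endothelial adhesion molecule that binds itself on the neighbouring cell, was not called in any of the 4 limma comparisons. It was at 24307 to 31933 in Smad4 mutants and 24995 to 29105 in wild types, at 24825 to 30760 in Alk1 mutants and 26580 to 30639 in wild types, and at 33787 to 36292 in Eng mutants and 34090 to 38993 in wild types. The log2 differences were 0.07, 0.02 and -0.07, with 95% intervals of -0.12 to 0.263, -0.141 to 0.181 and -0.164 to 0.027. In the IgG cohort the mutants were all above the wild types, at 28432 to 29724 against 27404 to 28322, by 0.06 ± 0.05 (SE, adjusted p = 0.426, interval -0.058 to 0.182). At 3 against 3, 41.0% of all genes tested had groups without overlap.

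**Figure D4:**
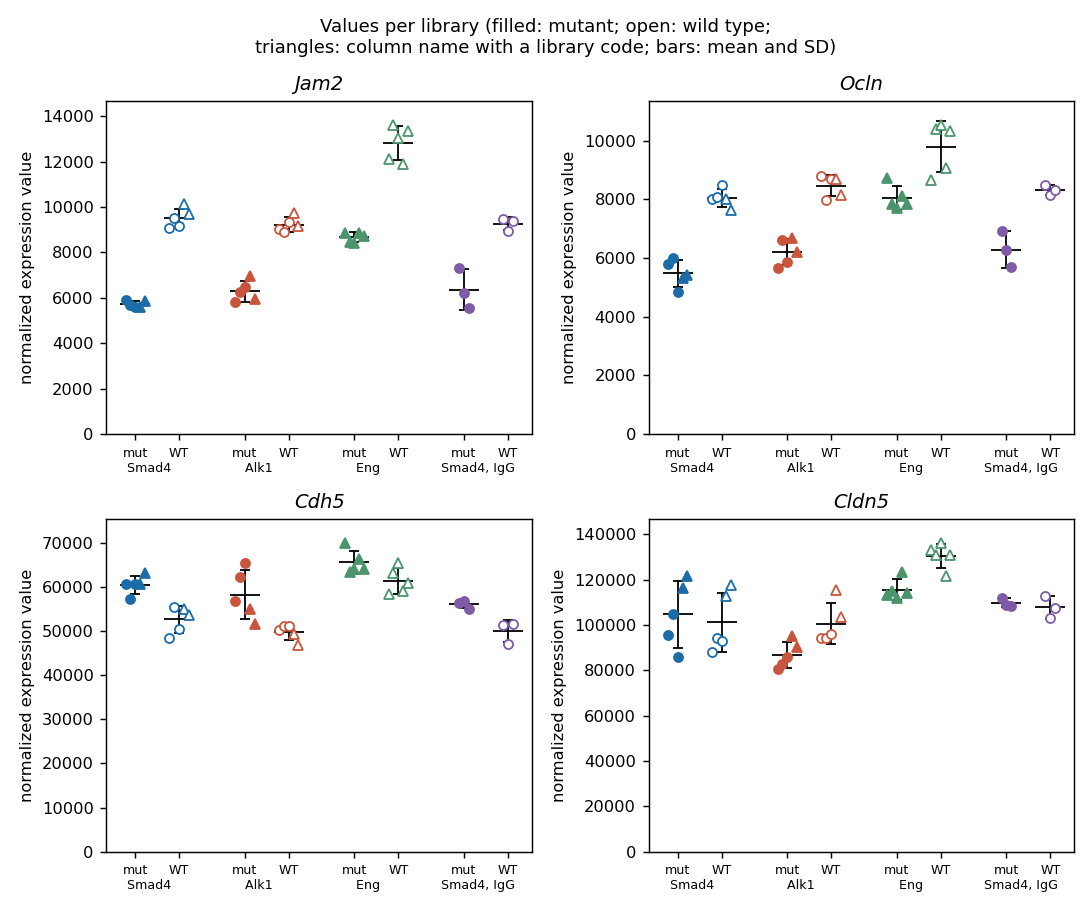
Values of Jam2, Ocln, Cdh5 and Cldn5 in every library, mutants left of wild types in each cohort, with mean and SD and with triangles for libraries whose column name carries a code. Jam2 mutants lie below all wild types in the 4 cohorts, Cdh5 mutants lie above all wild types in the Smad4, Alk1 and IgG cohorts, and Cldn5 groups overlap.

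ZO-1, the product of Tjp1 (ENSMUSG00000030516, chr7:65296165-65527781, minus strand), is the scaffold that links strand proteins to actin, and it fell in Eng mutants and had values of the opposite sign in Smad4 and Alk1 mutants. Eng mutants had 45012, 42707, 44672, 44957 and 45010, against 50338, 53679, 53104, 49144 and 52259 in wild types. All mutants were lower, with a log2 fold change of -0.22 ± 0.04 (SE, adjusted p = 0.0018). Smad4 mutants had 42489, 42771, 43638, 42134 and 45675, against 37912, 41094, 38293, 41573 and 37668 in wild types. All mutants were higher, and the change of 0.14 ± 0.05 missed the threshold over all genes (adjusted p = 0.0665). With the library code as a term its adjusted p was 0.0372. In Alk1 mutants Tjp1 was at 41466 to 53896, against 37077 to 44257 in wild types, with overlap and a difference of 0.18 ± 0.09 (adjusted p = 0.164). IgG-treated Smad4 mutants were at 38513 to 41356, against 37121 to 40254 in IgG wild types (0.04 ± 0.06, adjusted p = 0.699).

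Cgn (cingulin, ENSMUSG00000068876, chr3:94760069-94786492, minus strand), a scaffold that binds ZO-1 and myosin in epithelia, was near the limit of the data. It was at 38.5, 13.1, 26.2, 13.7 and 3.91 in Smad4 mutants, against 77.7, 29.9, 26.1, 17.7 and 22.7 in wild types, and the groups overlapped (-0.89 ± 0.54, log2, SE, adjusted p = 0.223). In IgG-treated Smad4 mutants it was at 15.1, 14.4 and 5.33, against 40.0, 27.4 and 29.1 in IgG wild types. Only the wild types brought it over the minimum value of 20 there, so a difference (-1.41 ± 0.43, adjusted p = 0.0582) was set by the filter. In the Alk1 cohort it did not reach the minimum in enough libraries and was not tested, with 0 to 23.0 in mutants and 2.17 to 18.9 in wild types. Eng mutants had 25.7 to 54.0 and wild types 19.4 to 42.5 (0.40 ± 0.29, adjusted p = 0.387). The epithelial and choroid plexus markers were lower in Smad4 mutants, at the ppm given above, and in IgG mutants they summed to 206 to 937 ppm against 789 to 2829 ppm in IgG wild types. Their part in the Cgn values was not tested.

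VE-cadherin, the product of Cdh5 (ENSMUSG00000031871, chr8:104101625-104144511, plus strand), was higher in mutants than in wild types in the Smad4 and Alk1 cohorts, by a small amount. Its promoter also drives Cre in the mutants and not in the wild types, so any signal that the transgene adds to Cdh5 cannot be told apart from the genotype. Smad4 mutants had 60524, 57223, 60571, 60573 and 63093, against 48480, 55462, 50407, 55007 and 53706 in wild types. No mutant reached the wild type range, with a log2 fold change of 0.20 ± 0.06 (SE, adjusted p = 0.0285). Alk1 mutants had 56725, 62314, 65285, 54861 and 51672, against 50182, 51226, 51191, 49415 and 46839 in wild types. They were again all higher, with a change of 0.22 ± 0.08 (adjusted p = 0.044). Eng mutants were at 63394 to 69853 and wild types at 58420 to 65355, with overlap and a difference of 0.10 ± 0.05 (adjusted p = 0.177, interval -0.006 to 0.196). Under IgG the Smad4 mutants were at 56439, 56753 and 54982, against 51422, 47143 and 51582 in IgG wild types, all higher but not called (0.17 ± 0.07, adjusted p = 0.116). With library totals the Smad4 and Alk1 calls were lost (0.12, adjusted p = 0.1, and adjusted p = 0.0665), as under quantile normalization (0.06 and 0.14, adjusted p = 0.444 and 0.142). The Smad4 call was also lost without mutant library 4 or 5 or wild type library 1 or 3 (adjusted p of 0.0557 to 0.0703), and the Alk1 call without mutant library 2, 3 or 4 or any wild type library (0.0536 to 0.106). Pecam1, the antigen of the capture and itself a junction protein, rose by 0.39 in Smad4, 0.33 in Alk1 and 0.26 in IgG mutants and was at 0.03 in Eng mutants (adjusted p = 0.00655, 0.01, 0.0409 and 0.693).

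In the Smad4 cohort 4 of the 9 members, Jam2, Ocln, Cdh5 and Tjp1, had groups without overlap, beside 22.8% of all genes tested. In the Alk1 cohort these were 3 of 8, Jam2, Ocln and Cdh5, beside 24.5%, and in the Eng cohort 2 of 9, Jam2 and Tjp1, beside 16.5%. In the IgG cohort 5 of 8 had no overlap, Jam2, Ocln, Cdh5, Lsr and Esam, beside 41.0%, leaving out Cgn, whose groups were set apart by the filter.

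Whether an effect differed between models was tested in a single fit over the 30 untreated libraries. Pups of the Alk1 cohort differed from the others in age and in the dose and days of tamoxifen, so gene and regimen cannot be told apart in the contrasts with Alk1. The Smad4 and Eng cohorts shared age and regimen. They lie in separate tables with no library code in common, so gene and cohort cannot be told apart there. Tjp1 differed by 0.36 (log2) for Smad4 minus Eng (adjusted p = 0.0135) and by 0.40 for Alk1 minus Eng (adjusted p = 0.00359). Marveld2 differed by 0.96 for Alk1 minus Eng (adjusted p = 0.0279), and for Smad4 minus Eng by 0.84, which was not called (adjusted p = 0.0804). The Marveld2 call was lost without Alk1 mutant library 2 or 3 or Eng mutant library 2 (adjusted p of 0.0525 to 0.0657), and the Smad4 minus Eng difference was called without Smad4 mutant library 3 (1.05, adjusted p = 0.00787) or wild type library 3 (0.95, adjusted p = 0.0478). Ocln was lower in Smad4 than in Eng mutants, each against its wild type, by -0.28 (adjusted p = 0.0436). That call was lost without any of 12 libraries, Smad4 mutants 3, 4 and 5, Smad4 wild types 1 to 4, Eng mutants 1, 2 and 4 and Eng wild types 1 and 4, at adjusted p-values of 0.0547 to 0.0832. For Smad4 minus Eng 2 of 9 members were called, beside 8.04% of all genes, and for Alk1 minus Eng 2 of 9, beside 14.5%. Calls over all genes were higher in 51.7% and 53.7% of cases for these contrasts, and in 33.8% and 38.8% when libraries were divided by their totals, which put the median of all genes at -0.116 and -0.106. The Tjp1 differences were 0.26 and 0.31 under that scaling, and under quantile normalization the one for Smad4 minus Eng was 0.19 and not called (adjusted p = 0.166). With the endothelial marker level as a term the Marveld2 difference was 0.75 (adjusted p = 0.106). No member was called for Smad4 minus Alk1 in limma, beside 15.9% of all genes (4281 genes at an unadjusted p under 0.05). There Jam2 was at -0.17 (adjusted p = 0.0706), and was called at -0.20 without Alk1 mutant library 1 (adjusted p = 0.0279) and at -0.19 without Alk1 mutant library 5 (adjusted p = 0.0474). Lsr was at 0.31 (adjusted p = 0.0666) and was called without Smad4 mutant library 1, Smad4 wild type library 5 or Alk1 wild type library 1 (adjusted p of 0.0249 to 0.0454).

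LC10 mutants and IgG mutants were set side by side after median-of-ratios scaling over the 9 antibody libraries. They lie in separate tables, so treatment and table cannot be told apart and no test was made. Ocln was at 5112 to 5323 in LC10 mutants, 5188 to 6325 in IgG mutants and 7470 to 7796 in IgG wild types, and both mutant groups lay below the wild types. Jam2 showed the same, at 4868 to 5777 in LC10 mutants, 5064 to 6691 in IgG mutants and 8188 to 8699 in IgG wild types. Cdh5 was at 51648 to 52840 in LC10 mutants, 50235 to 51951 in IgG mutants and 43174 to 47256 in IgG wild types, so both mutant groups were above the wild types, but with values as deposited LC10 mutants were below them, at 43778 to 44593 in LC10 mutants, 54982 to 56753 in IgG mutants and 47143 to 51582 in IgG wild types. Lsr did likewise, at 13598 to 14649 in LC10 mutants, 13435 to 13703 in IgG mutants and 11550 to 12598 in IgG wild types after scaling, and as deposited at 11454 to 12416, 14677 to 14998 and 12631 to 13709 in these groups. As deposited, the LC10 mutants lay below every IgG library for Cldn5, Ocln, Tjp1, Jam2, Cdh5, Lsr and Esam. The summed values of the LC10 libraries over all genes were also below those of every IgG library. With each library divided by its total, Cdh5 was at 51121 to 52814 in LC10 mutants and 44863 to 48666 in IgG wild types. Under that division Lsr was at 13781 to 14499 in LC10 mutants and 11944 to 12613 in IgG wild types. LC10 mutants were thus above the wild types for both genes, as after scaling. For Cldn5 the 3 groups overlapped after scaling, with means of 103014 ± 3936 in LC10 mutants, 100462 ± 1826 in IgG mutants and 98718 ± 4769 in IgG wild types (SD, n = 3 each). Marveld2 was highest in LC10 mutants after scaling, at 1890 to 2024 against 1246 to 1482 in IgG mutants and 1155 to 1873 in IgG wild types. The log2 difference between the mutant groups was 0.53. With the values as deposited that difference was 0.16 and the mutant ranges overlapped, at 1602 to 1708 in LC10 and 1362 to 1622 in IgG mutants. With each library divided by its total, LC10 mutants, at 1871 to 2000, overlapped the IgG wild types, at 1179 to 1947. They stayed above the IgG mutants there, at 1255 to 1478. Tjp1 was at 33319 to 33900 in LC10 mutants, 35188 to 37831 in IgG mutants and 33995 to 36994 in IgG wild types, with a log2 difference of -0.11 between the mutant groups. Over the 9 members the median log2 difference was 0.01.

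**Figure D5:**
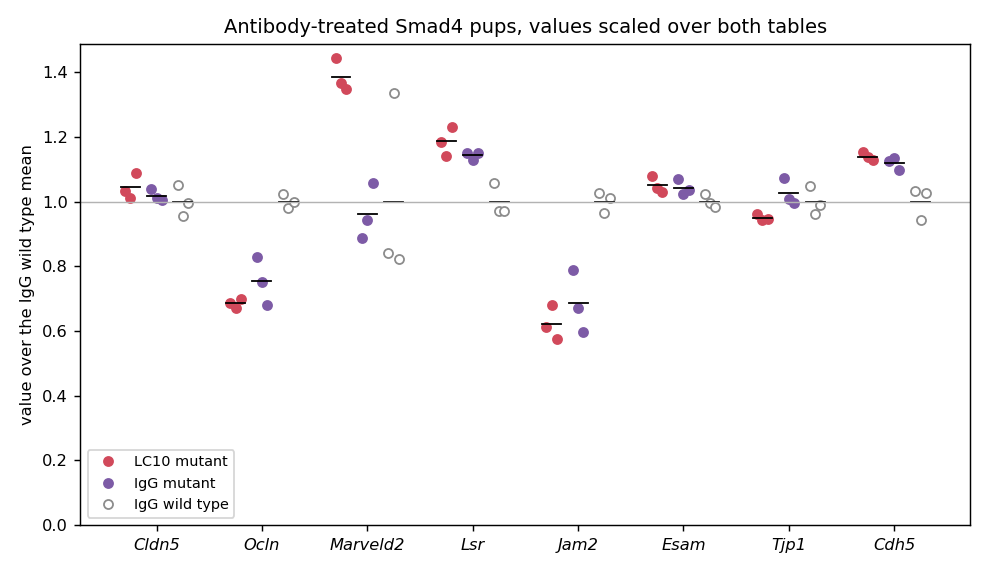
Scaled value of 8 junction genes (all but Cgn) divided by the mean of the IgG wild types, in LC10 mutants, IgG mutants and IgG wild types, with 3 libraries each and lines for group means. Jam2 and Ocln lie below the wild types in both mutant groups, and Cdh5 and Lsr lie above them in both. The LC10 mutants are highest for Marveld2. With values as deposited the LC10 mutants lie below the wild types for Cdh5 and Lsr too and overlap both IgG groups for Marveld2. With each library divided by its total they overlap the wild types for Marveld2.

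Other junction genes, in 8 lists, moved in both directions. Their counts are to be read beside the share of all genes called. That share was 33.0% in Smad4, 33.2% in Alk1, 21.5% in Eng and 17.8% in IgG mutants, and several lists were near or below it. Of the other claudins and MARVEL proteins 2 rose and 3 fell of 11 tested in Smad4 mutants, 1 and 1 of 11 in Alk1, 1 and 4 of 11 in Eng and 1 and 1 of 12 in IgG mutants. Among the other angulins Ildr2 alone was tested, and it fell in all 4 comparisons, to 8064 ± 430 in Smad4 mutants against 17402 ± 776 in wild types (SD, n = 5 each). Its log2 fold changes were -1.11, -0.35, -0.52 and -0.71 in Smad4, Alk1, Eng and IgG mutants. The IgG call was lost without mutant library 2 (adjusted p = 0.0902) or any wild type library (0.0618 to 0.0641). Other junction immunoglobulin proteins had 5 higher and 4 lower of 13 in Smad4 mutants, 3 and 2 of 12 in Alk1, 2 and 3 of 13 in Eng and 5 and 2 of 13 in IgG mutants. Mcam, the adhesion molecule CD146 of endothelium and pericytes, rose in all 4 comparisons, by 1.5, 1.23, 0.62 and 0.91. Named after their values were seen, the nearest relatives of Jam2 were F11r and Jam3. F11r, the gene of JAM-A, rose by 0.39 in Smad4 and 0.33 in IgG mutants (adjusted p = 0.00556 and 0.00966) and was at 0.18 and 0.04 in the Alk1 and Eng mutants (adjusted p = 0.0624 and 0.638). Jam3, the gene of JAM-C, fell by 0.53 in Smad4 and by 0.21 in Eng mutants (adjusted p = 0.00236 and 0.0427) and was at -0.12 and -0.39 in the Alk1 and IgG mutants (adjusted p = 0.551 and 0.096).

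Among other junction scaffolds 4 rose and 4 fell of 16 in Smad4 mutants, 3 and 2 of 16 in Alk1, 2 and 4 of 17 in Eng and 2 and 3 of 16 in IgG mutants. Amot, angiomotin, fell in all 4, by 0.91, 0.93, 0.34 and 0.70. Ybx3, which encodes a ZO-1-associated nucleic acid binding protein, rose in all 4, by 0.43, 0.34, 0.16 and 0.36, and its IgG call was lost without mutant library 2 (adjusted p = 0.0671). Other cadherins had 4 higher and 2 lower of 11 in Smad4, 2 and 1 in Alk1, 2 and 1 in Eng and 3 and 1 in IgG mutants. Cdh13, T-cadherin, rose in all 4, by 1.60, 0.94, 1.16 and 1.32. Of the catenins and actin linkers 7 rose and 2 fell of 17 in Smad4 mutants, 7 and 3 in Alk1, 1 and 2 in Eng and 3 and 1 in IgG mutants. Ctnna1, alpha-catenin of the adherens junction, rose by 0.39, 0.38 and 0.26 in Smad4, Alk1 and IgG mutants and was at 0.03 in Eng mutants (adjusted p = 0.695). Without IgG mutant library 2 or IgG wild type library 2 its adjusted p in the IgG comparison was 0.0737 or 0.0644. Arvcf of the same list, called in 3 comparisons, took both directions, at 0.35, -0.82, -0.09 and 0.31 in Smad4, Alk1, Eng and IgG mutants. With any 1 IgG library left out, the limma adjusted p of Arvcf in the IgG comparison was 0.0502 to 0.117. Polarity complex genes had 0 higher and 2 lower of 11 in Smad4, 2 and 1 of 11 in Alk1, none of 12 in Eng and 0 and 2 of 11 in IgG mutants. Junction regulators had 12 higher and 2 lower of 32 in Smad4, 12 and 4 in Alk1, 3 and 4 in Eng and 4 and 4 in IgG mutants. Their median log2 fold change was 0.181, 0.177, -0.023 and 0.033, beside -0.006, -0.010, -0.013 and 0.003 over all genes tested.

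The genes whose 4 log2 fold changes lay nearest to those of a member were found among 11407 genes tested in all 4 comparisons and at 100 or more on average in each wild type group. For Jam2 they were 4930429F24Rik, Igf1r and Gpr155, at a root mean square difference of 0.047, 0.073 and 0.077. For Ocln they were Gstm5, Ralgps1 and Nr1d2, at 0.042, 0.048 and 0.048. Marveld2 had Tgfbi, Pla1a and Phactr4 nearest, at 0.065, 0.11 and 0.113, and Tgfbi was at 0.67, 0.92, -0.04 and -0.04 in Smad4, Alk1, Eng and IgG mutants. Srgap1, Arhgap5 and Gm7072 were nearest to Tjp1, at 0.033, 0.034 and 0.034. For Cldn5 they were Lrrc41, Rftn2 and Unc119b, for Cdh5 Rbm7, Psmc6 and Poldip3, for Lsr Nprl3, Ckb and Tor1b, and for Esam Mtmr1, Snx1 and Ctdsp1. The distance was 0.009 to 0.030 for these last 4 members, whose own changes were small.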

How the data were processed

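The tables used were 5, 1 each for the Smad4, Alk1, Eng, IgG and LC10 sets. They hold a signal per gene and library as the authors deposited it, taken to be normalized because of the values themselves, and mm10 is the genome build per the submitters' processing notes. The labels call them raw counts, but the values are not whole: only 3.22 to 27.1% of the values under 100 lay within 0.02 of whole multiples of a step, so read depth is unknown and no test for counts was used. Not given in the sources used here are the aligner, the counter and the normalization. Precision therefore rests on the number of libraries, 5 or 3 a group. Columns of the untreated cohorts match a group and not a sample, so library numbers there are file order. The LC10 table has 3 wild type columns without a described sample, which stayed out. Of 24972 rows, 26 whose names were repeated or looked like dates were dropped, and 97.9% of the 24946 symbols matched GENCODE M21, which gave coordinates and exon lengths.

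The test was that of limma 3.58.1 (R 4.3.3) on log2(value + 2), over genes reaching 20 in 5 or more libraries (in 3 or more for IgG), with an intensity trend, no further scaling and Benjamini-Hochberg adjustment over the table. The pseudocount understates the fold changes of low genes. Differences between models were contrasts in a fit over all 30 untreated libraries. The procedure was also run on simulated data with independent noise for each gene. Those data held no shifts by library code or by cell type, so the run cannot speak to such shifts here. Summaries and figures were made with Python 3.11.15. Within-group correlations across genes were at least 0.954 and no libraries were identical. Replicate numbers of the labels match columns only for the antibody libraries. Numbers in the column names of libraries without a code were used as a block only in alternative fits, and no label gives pairs. Same-numbered Alk1 libraries had r across genes of 0.19, 0.21 and 0.11, and differently numbered ones -0.24 to 0.02. In the Smad4 cohort the differently numbered mutant 3 and wild type 1 reached 0.36, so values of this size do not show pairing. Alternatives were library totals, median-of-ratios, quantile normalization, pseudocounts of 0.5 and 20, no filter, no trend, marker levels and library codes as terms, subsets by code, replicate numbers as a block, and each library left out.

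The members and the gene lists were chosen with earlier results of these data known. Named besides the members were, from each list, up to 3 genes called in the most comparisons with the smallest adjusted p, ties by mean absolute change, and the 3 nearest genes of each member, of which the text gives a selection from the lists. Pecam1 was added as the antigen of the capture, and F11r and Jam3 after their values were seen.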

Additional observations from a re-analysis of the deposited data

Results flagged for a closer look

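Within groups of 5 libraries, 5 of 54 member groups had a library far from the others, judged by its gap to the nearest other library over the range of the group (above 0.71). Chance flags about 1 in 20 groups. Tjp1 was at 42707 in Eng mutant library 2, below the other Eng mutants, and Cldn5 was at 123592 in Eng mutant library 4, above them. Lsr was at 9919 in Alk1 mutant library 1, below the other Alk1 mutants. Marveld2 was at 899.6 in Alk1 wild type library 4 and Cgn at 77.7 in Smad4 wild type library 1, both above the rest of their groups.

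The genotype effects differed between models for 3 members. Tjp1 differed by 0.358 for Smad4 minus Eng (log2, limma adjusted p = 0.0135) and by 0.397 for Alk1 minus Eng (adjusted p = 0.00359). Marveld2 differed by 0.958 for Alk1 minus Eng (adjusted p = 0.0279) and Ocln by -0.278 for Smad4 minus Eng (adjusted p = 0.0436).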

How the results depend on the processing

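Over all alternatives, 1692 of the members' results kept their direction and their side of the threshold, 56 that were not called changed sign without a call, 71 were no longer called, 44 became called and 1 reversed. Each member, comparison and alternative counts once. The 71 come only from results called as reported, while the 1692 also hold results called in neither fit. The reversed result was Cldn5 in Eng mutants, at 0.001 under quantile normalization. In the Smad4 comparison 3 members were called as reported, 6 with the library code as a term, 6 with the endothelial marker level as a term and 5 with the libraries coded L146 alone, where over all genes the calls were 4620, 6428, 6182 and 6022. In the Alk1 comparison 4 were called, and 2 with the libraries coded L219 alone, beside 4530 and 4172 over all genes. In the IgG comparison 3 were called, 0 with the glial and neuronal marker level as a term and 1 with no intensity trend, where over all genes the calls were 2480, 694 and 963. Over the differences between models 4 calls were made, and 8 each with library totals, with the library code and with the endothelial marker level as terms. Over all genes the calls for Smad4 minus Alk1, Smad4 minus Eng and Alk1 minus Eng were 2340, 1182 and 2135 as reported, 2298, 1247 and 2316 with library totals, 3236, 2065 and 2949 with the code and 3184, 925 and 1619 with the endothelial marker level. With 1 library left out the calls were 2 to 4 for Smad4, 3 to 4 for Alk1, 3 to 4 for Eng, 0 to 3 for IgG (0 without IgG mutant library 2) and 2 to 5 for the differences (2 without Eng mutant library 2). The median log2 difference of LC10 and IgG mutants was 0.01 after scaling and -0.346 with values as deposited. The cause of these changes was not tested. Same-numbered IgG mutants and wild types had r across genes of 0.06, 0.03 and -0.07. These are deviations from means of 3 libraries, which cannot settle whether the numbers pair them. With the replicate number as a block the IgG comparison had 2 calls, Jam2 and Ocln (also 2 with library totals), and Lsr had an adjusted p of 0.0536. Column names number the Smad4 and Alk1 libraries without a code from 1 to 3. With that number as a block and the coded libraries as a further block, 4 members were called in Smad4 (with Lsr added, adjusted p = 0.00863) and 5 in Alk1 (with Cldn5 added), and among the libraries without a code alone 2 and 3, the same counts as there without the block. Over all genes that subset of Smad4 had 1553 calls with the block and 2461 without it. Same-numbered Smad4 libraries did not deviate together (r across genes of -0.08, 0.17 and -0.12). The same-code subsets, the blocks other than that with library totals and the endothelial marker term were chosen after seeing the data. The subset without a code was not run for Eng or for the differences, since every Eng library is coded. For Eng no paired analysis was possible because its column names carry only a code and a number within it, shared by no mutant and wild type of one code. The block was not run for the differences between models. Low values limit Cgn.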
